A study of Mus musculus with 17 samples.

Results

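The genes described here are members of the TNF superfamily, taken as the genes whose symbol in both deposited tables starts with Tnfsf or Tnfrsf followed by a number. Tnfsf4, Tnfsf9, Tnfsf13, Tnfsf13b, Tnfrsf13b, Tnfrsf13c and Tnfrsf17 were left out of this choice, which left 25 of 32 such symbols among 55491 genes. By symbol, 8 of the 25 are ligands, among them Tnfsf13os, a noncoding RNA antisense to Tnfsf13, and 17 are receptors. Names alone decided membership and no measured value entered the rule, but the rule was chosen with earlier results of these data known.

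RNA was sequenced in 17 mouse libraries, 9 of spleen cells labelled B cells and 8 of bone marrow cells labelled BMDC, bone marrow dendritic cells, which take up and present antigen. The cells were incubated after harvest, and each cell type had a Control group without drug, a group given MSA2, an agonist of the innate DNA-sensing adaptor STING, and a group given MSA2 with IPI-549, an inhibitor of the lipid kinase PI3Kγ, called the combination below. There were 3 libraries in each group, except for the BMDC combination with 2. The series text names KPC mice, a model of pancreatic cancer, for all groups, while the genotype label of every library reads WT and the treatment label reads Control throughout, so groups were taken from the sample titles. No group received IPI-549 alone, neither dose nor time is given in the labels, and the labels do not say whether replicates came from separate mice. P-values therefore measure only the spread between these libraries, which may be technical.

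TNF superfamily ligands are mostly trimeric proteins on the cell surface, many of which are also shed, and their receptors are membrane proteins that gather TRAF adaptors or, where they carry a death domain, the machinery of cell death. TRAF signalling leads to NF-κB and to survival or inflammatory gene expression, and the noncanonical arm runs through Map3k14 and Relb. In immune tissue, dendritic cells and B cells present several of the ligands to T cells and NK cells, which carry many of the costimulatory receptors.

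Total counts ranged from 41093440 to 51433008 per B cell library and from 34760025 to 73166643 per BMDC library, where MSA2 replicate 2 was the deepest. By the number in their descriptions, the B cell MSA2 libraries were 8, 11 and 12 and the other B cell libraries 1 to 6, so that this order and MSA2 cannot be told apart in B cells, whereas the BMDC groups were mixed in number. All 12 B cell markers were detected in each group of B cell libraries, and all 10 dendritic cell markers in each group of BMDC libraries, where their summed level was 1630 to 2100 CPM, which are counts relative to library totals scaled by the trimmed mean of M-values (TMM). Markers of monocytes and macrophages summed to 15200 to 20800 CPM in BMDC. The BMDC libraries held few transcripts of T cells (10.9 to 16.2 CPM over 12 markers, with Bcl11b at 0 in every group) or of NK cells (6.72 to 9.91 CPM over 10 markers, with Ncr1 and Gzma at 0 in every group). Neutrophil markers summed to 716 to 990 CPM, B cell markers to 20.6 to 34.3 CPM, stromal and endothelial markers to 29.3 to 38.3 CPM and red cell precursor markers to 1.21 to 3.26 CPM in BMDC. In bulk libraries such as these, fewer cells of a type and less RNA per cell cannot be told apart.

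The promoters of 3 ligands are shown because they were among the ligands that rose with MSA2 in both cell types, and that of Tnfrsf1b because it was the receptor with the clearest fall in BMDC. Each sequence is the RefSeq window of GRCm38.p6 from 250 bases before to 50 bases after the transcript start, read 5′ to 3′ along the gene's own strand. Capitals mark a match to a searched motif. Tnfsf15 (chr4:63745010-63745309, minus strand), Tnfsf8 (chr4:63861235-63861534, minus strand), Tnfsf14 (chr17:57194132-57194431, minus strand) and Tnfrsf1b (chr4:145246821-145247120, minus strand) read as follows.
Tnfsf15: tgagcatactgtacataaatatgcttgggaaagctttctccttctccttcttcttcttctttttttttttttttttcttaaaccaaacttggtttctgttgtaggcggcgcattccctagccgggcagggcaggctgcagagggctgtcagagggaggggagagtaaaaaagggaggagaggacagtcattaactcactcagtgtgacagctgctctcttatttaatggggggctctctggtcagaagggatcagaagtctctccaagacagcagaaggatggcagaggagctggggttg
Tnfsf8: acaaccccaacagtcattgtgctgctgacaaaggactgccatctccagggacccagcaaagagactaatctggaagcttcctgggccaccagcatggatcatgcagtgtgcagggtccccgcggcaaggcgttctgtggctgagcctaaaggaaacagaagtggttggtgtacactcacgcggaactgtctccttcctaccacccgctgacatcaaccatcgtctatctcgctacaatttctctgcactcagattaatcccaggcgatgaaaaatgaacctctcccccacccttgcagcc
Tnfsf14: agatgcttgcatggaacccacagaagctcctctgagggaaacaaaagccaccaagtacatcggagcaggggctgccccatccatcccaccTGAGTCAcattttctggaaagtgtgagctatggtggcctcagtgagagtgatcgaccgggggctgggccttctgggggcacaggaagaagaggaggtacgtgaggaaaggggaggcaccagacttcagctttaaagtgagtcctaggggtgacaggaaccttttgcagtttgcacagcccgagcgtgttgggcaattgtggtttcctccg
Tnfrsf1b: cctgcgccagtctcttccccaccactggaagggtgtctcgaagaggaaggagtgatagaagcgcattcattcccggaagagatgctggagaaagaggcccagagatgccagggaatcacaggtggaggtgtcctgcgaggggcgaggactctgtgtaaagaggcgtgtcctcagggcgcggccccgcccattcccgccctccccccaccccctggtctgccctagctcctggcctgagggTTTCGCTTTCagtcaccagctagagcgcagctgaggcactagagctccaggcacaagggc
The motifs were searched on both strands and did not overlap one another. The core of the interferon-stimulated response element, GAAA followed after any 2 bases by GAAA, occurred in 2 of the 22 windows of the 19 members with an entry, those of Tnfrsf14 and Tnfrsf1b, and in 3.44% of all 32851 windows in the table. One form of the NF-κB site, GGG followed after any 2 bases by TTTCC, occurred in 2 windows, those of Tnfrsf25 and Tnfrsf9, and in 1.63% of all windows. TGANTCA, the AP-1 site, was added after the values were known and occurred in 3 windows, those of Tnfrsf8, Tnfrsf9 and Tnfsf14, and in 7.81% of all windows. The windows of Tnfsf15 and Tnfsf8 held none of the 3 motifs, which says only that these letters are not in these windows.

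The comparison of MSA2 with Control in BMDC asks what STING activation does to these genes in dendritic cells. The ligand Tnfsf15 had by far the largest rise, and Tnfsf8, Tnfsf14, Tnfsf18, Tnfsf10 and the receptors Tnfrsf11b, Tnfrsf12a, Tnfrsf11a and Tnfrsf1a rose as well. Tnfrsf1b, Tnfrsf23 and Tnfsf12 fell by small amounts. Of the 25 members, 22 passed the filter on low counts, 9 were higher, 3 lower and 10 without a call, beside 28.2% of all genes tested called, 14.6% higher and 13.5% lower. The median log2 fold change was 0.27 over the members tested and -0.01 over all genes tested. Among the ligands 5 of 7 tested rose and 1 fell (median 2.10), and among the receptors 4 of 15 rose and 2 fell (median 0.13). Tnfsf18 passed the filter only through the MSA2 libraries, so its entry into these counts was tied to its rise. A call is a p under 0.05 in edgeR's quasi-likelihood F test after the Benjamini-Hochberg adjustment over all genes tested, and every adjusted p below comes from that test unless another tool is named.

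**Figure D1:**
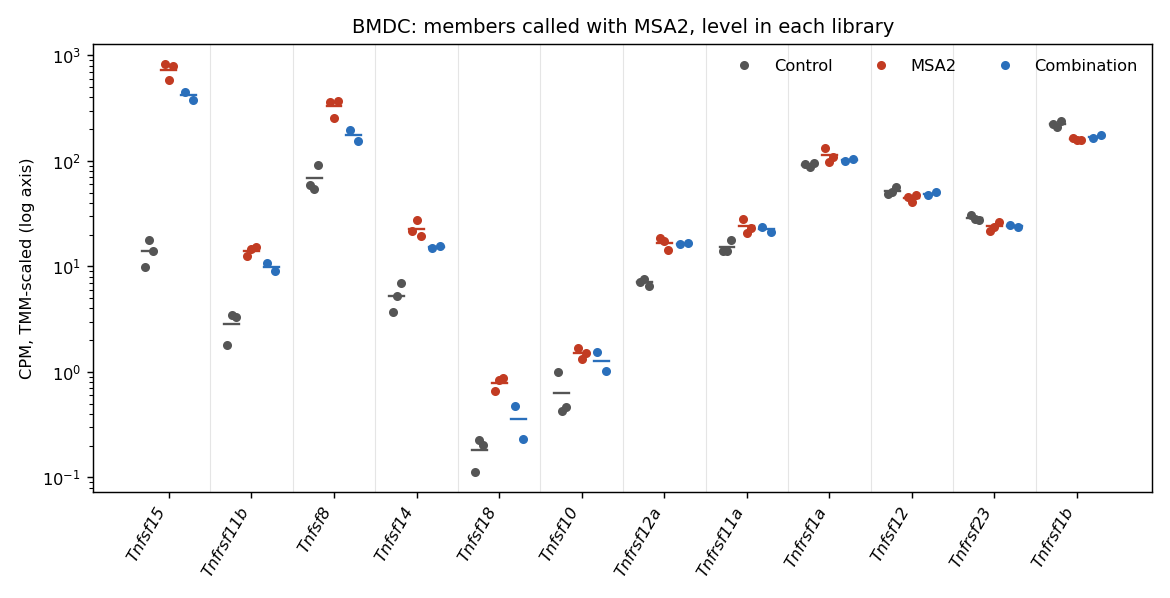
Level in each BMDC library of the 12 members called between MSA2 and Control, in CPM on TMM-scaled totals (log axis). Points are libraries (3 Control, 3 MSA2, 2 combination) and short lines are group means. For Tnfsf15 the Control libraries sit between 9.82 and 17.8 CPM and the MSA2 libraries between 581 and 822 CPM.

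Tnfsf15 encodes TL1A, a costimulatory ligand whose receptor is DR3, the product of Tnfrsf25. Its gene (ENSMUSG00000050395) lies at chr4:63727084-63745113 in GRCm38 on the minus strand. Tnfsf15 stood at 9.82, 17.8 and 14.0 CPM in the Control libraries and at 822, 581 and 795 CPM in the MSA2 libraries. All 3 MSA2 libraries lay far above all Control libraries, and the range within MSA2 was small beside that gap. The log2 fold change was 5.72 ± 0.22 (SE), a 52.6-fold rise (adjusted p = 2.11e-08), which ranked 39 among the genes called higher. Per kilobase of exon, its mean level moved from rank 10 of the 25 members in Control (4.15 CPM per kilobase) to rank 1 with MSA2 (219 CPM per kilobase). Tnfrsf25, the receptor gene, had 7, 3 and 3 counts over the Control, MSA2 and combination libraries and was too low to test in BMDC.

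Tnfsf8 encodes CD30 ligand, which signals to CD30 on activated lymphocytes, and is the neighbour of Tnfsf15 on the same strand, 86194 bases away. It stood at 59.0, 54.0 and 91.8 CPM in Control and at 360, 255 and 371 CPM with MSA2. The groups did not overlap, and the lowest MSA2 library was well above the highest Control library. The rise was 4.82-fold, or 2.27 ± 0.20 SE on the log2 scale (adjusted p = 9.87e-06). Its receptor gene Tnfrsf8 (CD30) had means of 1.57 ± 0.275 CPM (SD, n = 3) in Control and 1.28 ± 0.377 CPM with MSA2 (SD, n = 3), without a call (-0.29 ± 0.26 SE, adjusted p = 0.45).

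Tnfsf14 encodes LIGHT, a ligand of HVEM and of the lymphotoxin β receptor. Its level was 3.69, 5.29 and 6.89 CPM in Control and 21.4, 27.3 and 19.3 CPM with MSA2, again without overlap. The log2 fold change was 2.11 ± 0.19 SE (adjusted p = 1.01e-05), a 4.30-fold rise. Tnfrsf14, which encodes HVEM, ranged from 4.07 to 4.97 CPM over all 8 BMDC libraries and had no call (0.13 ± 0.12 SE, adjusted p = 0.49).

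Tnfsf18 encodes GITR ligand and was a weakly expressed gene, at 0.113, 0.224 and 0.202 CPM in Control and 0.658, 0.838 and 0.872 CPM with MSA2. Those levels rest on 21 and 120 counts per group. The groups were apart, by 2.10 ± 0.38 SE on the log2 scale (adjusted p = 0.00162). Tnfrsf18, the GITR gene, lay between 8.49 and 11 CPM in all BMDC libraries, and its change had no call (0.12 ± 0.11 SE, adjusted p = 0.462).

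Tnfsf10 encodes TRAIL, which can start cell death through death-domain receptors. It was found at 0.993, 0.426 and 0.461 CPM in Control and 1.68, 1.31 and 1.52 CPM with MSA2. The MSA2 libraries were all higher, and Control replicate 1 lay between the other Control libraries and MSA2. The log2 fold change was 1.27 ± 0.32 SE (adjusted p = 0.013), and without Control replicate 2 the adjusted p was 0.0575. Tnfrsf10b, the mouse death receptor of TRAIL, had no call (0.30 ± 0.11 SE, adjusted p = 0.0655).

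Tnfsf12, the TWEAK gene, fell slightly, from 48.9, 50.7 and 56.3 CPM to 45.3, 40.9 and 47.2 CPM. The groups did not overlap, but the change was small, -0.23 ± 0.08 SE, with an adjusted p of 0.0487. It was above 0.05 in 10 of 14 alternatives and reached 0.162 without Control replicate 3 and 0.15 without MSA2 replicate 2. The call was also lost without Control replicate 1 (0.0516) or 2 (0.0785), combination replicate 1 (0.0697) or 2 (0.0706) and MSA2 replicate 1 (0.0645). Of its 50-base stretches 46.8% also occur in the readthrough gene Tnfsfm13, so the split of reads between them is uncertain. Tnfrsf12a, which encodes the TWEAK receptor Fn14, went the other way, at 7.18, 7.53 and 6.49 CPM in Control and 18.4, 17.3 and 14.3 CPM with MSA2. That rise of 2.36-fold (1.24 ± 0.11 SE, adjusted p = 7.46e-06) left a wide gap between the groups.

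Tnfrsf11b encodes osteoprotegerin, a secreted decoy receptor of RANK ligand. It had the largest rise among the receptors, from 1.79, 3.45 and 3.29 CPM in Control to 12.6, 14.5 and 15.2 CPM with MSA2. No library of one group reached the other, and the log2 fold change was 2.30 ± 0.19 SE (adjusted p = 5.59e-06), a 4.92-fold rise. Tnfrsf11a, which encodes RANK, stood at 14.1, 14.0 and 17.8 CPM in Control and at 27.9, 20.7 and 23.3 CPM with MSA2, without overlap and 0.65 ± 0.13 SE higher on the log2 scale (adjusted p = 0.00267). The gene of their ligand, Tnfsf11 (RANK ligand), had 3, 1 and 2 counts over Control, MSA2 and combination, too few to test.

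The 2 receptors of TNF moved in opposite directions. Tnfrsf1b, which lacks a death domain, was at 223, 211 and 241 CPM in Control and at 166, 158 and 157 CPM with MSA2. All MSA2 libraries were lower, and the log2 fold change was -0.49 ± 0.06 SE (adjusted p = 0.000184). Tnfrsf1a, which carries a death domain, was at 92.4, 88.0 and 94.4 CPM in Control and at 131, 98.0 and 109 CPM with MSA2, a difference of 0.30 ± 0.09 SE (adjusted p = 0.0319). MSA2 replicate 1 was the highest library, and without it the value was 0.18 (adjusted p = 0.0798). The call was also lost without Control replicate 1 (0.0786), 2 (0.104) or 3 (0.0513) and without MSA2 replicate 3 (0.0576).

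Among the remaining receptors Tnfrsf23, a decoy receptor of TRAIL, fell from 30.7, 28.4 and 27.5 CPM to 21.7, 23.5 and 26.5 CPM, which left the groups close together. Its log2 fold change was -0.27 ± 0.08 SE (adjusted p = 0.0309), with no call without Control replicate 1 (0.12) or 2 (0.0618) or MSA2 replicate 1 (0.0872) or 2 (0.0728). Its sequence shares 18.0% of its 50-base stretches with the adjacent Tnfrsf22, which makes the assignment of reads uncertain. Tnfrsf9, the gene of the costimulatory receptor CD137, ranked 2 among the members by level per kilobase of exon in Control, at 207, 155 and 104 CPM in Control and 202, 185 and 161 CPM with MSA2, groups that overlapped (0.23 ± 0.20 SE, adjusted p = 0.421). Tnfrsf21, Tnfrsf22, Tnfrsf26 and the noncoding Tnfsf13os had no call either, with log2 fold changes from -0.24 to -0.02. Tnfrsf4, the gene of the costimulatory receptor OX40, was at 0.652, 0.941 and 0.461 CPM in Control and 1.21, 1.13 and 1.22 CPM with MSA2 without overlap, but had no call (0.77 ± 0.29 SE, adjusted p = 0.0769, and 0.0347 without Control replicate 2). Tnfrsf19, the TROY gene, had 1 count in Control and 2 with MSA2, too few to test.

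The comparison of the combination with Control in BMDC asks whether the same genes differ when the PI3Kγ inhibitor is added. It shares its Control libraries with the comparison above, so the 2 sets of values are not independent. Tnfsf15, Tnfrsf11b, Tnfsf14, Tnfsf8, Tnfrsf12a and Tnfrsf11a were higher and Tnfrsf1b lower. That makes 6 higher, 1 lower and 15 without a call of 22 members tested, beside 12.9% of all genes called, 7.51% higher and 5.38% lower. The median log2 fold change was 0.15 against 0.01 over all genes.

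Tnfsf15 reached 454 and 381 CPM in the 2 combination libraries, both far above Control by 4.91 ± 0.22 SE on the log2 scale (adjusted p = 1.12e-07), rank 40 among the genes called higher. Tnfrsf11b stood at 10.7 and 9.08 CPM (1.79 ± 0.21 SE, adjusted p = 0.000163). Tnfsf14 was at 15 and 15.5 CPM (1.53 ± 0.21 SE, adjusted p = 0.000491). For these 3 genes the combination libraries were all above Control and all below MSA2. Tnfsf8 showed the same order, at 196 and 155 CPM (1.37 ± 0.21 SE, adjusted p = 0.0014). Tnfrsf12a was at 16.2 and 16.7 CPM (1.22 ± 0.12 SE, adjusted p = 3.58e-05), within the range of the MSA2 libraries. Tnfrsf11a was at 23.7 and 21.1 CPM (0.55 ± 0.14 SE, adjusted p = 0.0233), and its call was lost without Control replicate 1 (0.0806) or 2 (0.081) and without combination replicate 1 (0.191) or 2 (0.066). Tnfrsf1b, at 165 and 175 CPM, was below every Control library (-0.40 ± 0.07 SE, adjusted p = 0.00336, and 0.0624 without combination replicate 1). Tnfsf10 at 1.54 and 1.01 CPM (1.04 ± 0.36 SE, adjusted p = 0.0894, and 0.0147 without Control replicate 1) and Tnfsf18 at 0.479 and 0.231 CPM (0.97 ± 0.46 SE, adjusted p = 0.217) were without a call. Tnfrsf9 at 184 and 230 CPM had no call either (0.41 ± 0.22 SE, adjusted p = 0.26, and 0.0393 without Control replicate 1).

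**Figure D2:**
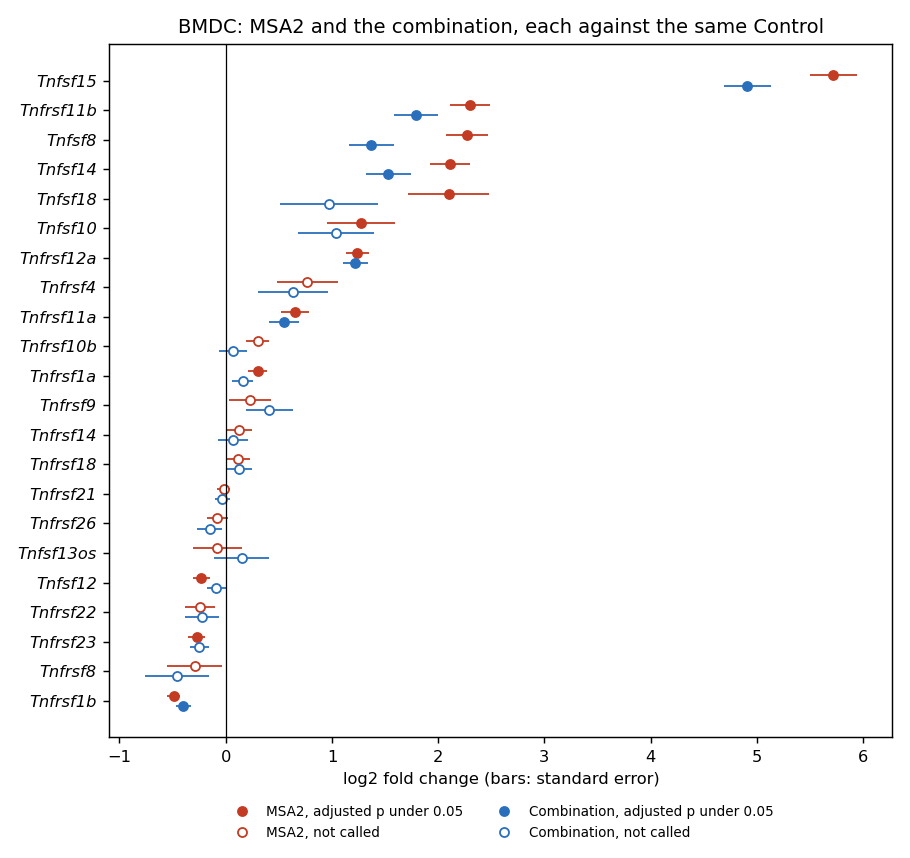
Log2 fold change of each of the 22 members tested in BMDC, for MSA2 (red) and the combination (blue) against the same Control libraries. Bars are standard errors, and filled points have an adjusted p under 0.05. Tnfsf15 is farthest to the right at 5.72 and 4.91, and Tnfrsf1b is lowest at -0.49 for MSA2.

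The direct comparison of the combination with MSA2 in BMDC asks what the PI3Kγ inhibitor adds to MSA2. No member had a call, 0 of 22, beside 0% of all 14614 genes tested, while DESeq2 called 158 genes and also 0 members. The 5 members with an unadjusted p under 0.05 were Tnfsf15 (-0.81 ± 0.20 SE, adjusted p = 0.227), Tnfsf8 (-0.90 ± 0.22 SE, adjusted p = 0.222), Tnfsf14 (-0.58 ± 0.20 SE, adjusted p = 0.344), Tnfsf18 (-1.13 ± 0.39 SE, adjusted p = 0.347) and Tnfrsf11b (-0.51 ± 0.19 SE, adjusted p = 0.374). How many of all genes lay under that unadjusted cutoff was not counted, so the number of members has no background. All 5 members were lower with the combination, and each was a gene that MSA2 had raised. That rise and this fall share the MSA2 libraries, so they are not independent. Tnfsf18 also passed the filter only through the MSA2 libraries. In each of the 5, both combination libraries lay below all 3 MSA2 libraries, but their choice by p in this contrast favours such a gap. Without the filter on low counts edgeR called 561 of 24774 genes tested. Among them were Tnfsf8 (-0.92, adjusted p = 2.73e-24), Tnfsf15 (-0.82, adjusted p = 8.34e-19), Tnfsf14 (-0.59, adjusted p = 3.04e-05) and Tnfrsf11b (-0.53, adjusted p = 0.00514), while the sizes were nearly those of the filtered fit. In edgeR the calls against MSA2 therefore depended on that filter, while DESeq2, which was run without that filter, called 0 members. The cause was not tested. By contrast Tnfrsf12a (-0.02 ± 0.11 SE, adjusted p = 0.972) and Tnfrsf21 (-0.01 ± 0.07 SE, adjusted p = 0.983) had values near 0.

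In the B cell libraries, markers of other cell types moved with MSA2, and their values stand here before the members. The summed level of 12 B cell markers was 8930 to 9490 CPM in Control, 8970 to 9790 CPM in the combination and 4520 to 5090 CPM with MSA2, and all 12 were lower with MSA2 than in Control (median log2 fold change -0.97). The T cell list summed to 405 to 423, 331 to 360 and 1370 to 1690 CPM in the same order, with 11 of 12 higher and Cd2, which mouse B cells also express, lower with MSA2. Without Cd2, a choice made after the values were seen, the other 11 summed to 61.2 to 83.0, 48.0 to 57.6 and 1150 to 1390 CPM. The NK cell list went from 18.7 to 27.4 CPM in Control to 585 to 678 CPM with MSA2 (10 of 10 higher), and stood at 10.1 to 14.9 CPM in the combination. All 12 monocyte and macrophage markers were higher with MSA2 (50.6 to 72.0, 52.3 to 54.1 and 1510 to 1700 CPM), as were all 12 neutrophil markers (2.45 to 36.1, 0.55 to 1.06 and 1710 to 1790 CPM) and all 9 red cell precursor markers (21.9 to 45.1, 18.3 to 22.6 and 1060 to 1230 CPM). Of the dendritic cell markers 7 of 10 were higher with MSA2, although the list's sum was 1180 to 1430, 1400 to 1740 and 1020 to 1270 CPM. Stromal and endothelial markers summed to 231 to 254, 234 to 286 and 188 to 220 CPM, with 4 of 8 higher and 1 lower. Elane was at 0 in Control and in the combination, and Cd3e, Bcl11b, Clec10a and Pdgfrb were at 0 in the combination. The part of these other cell types in the results for the members was not tested.

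**Figure D3:**
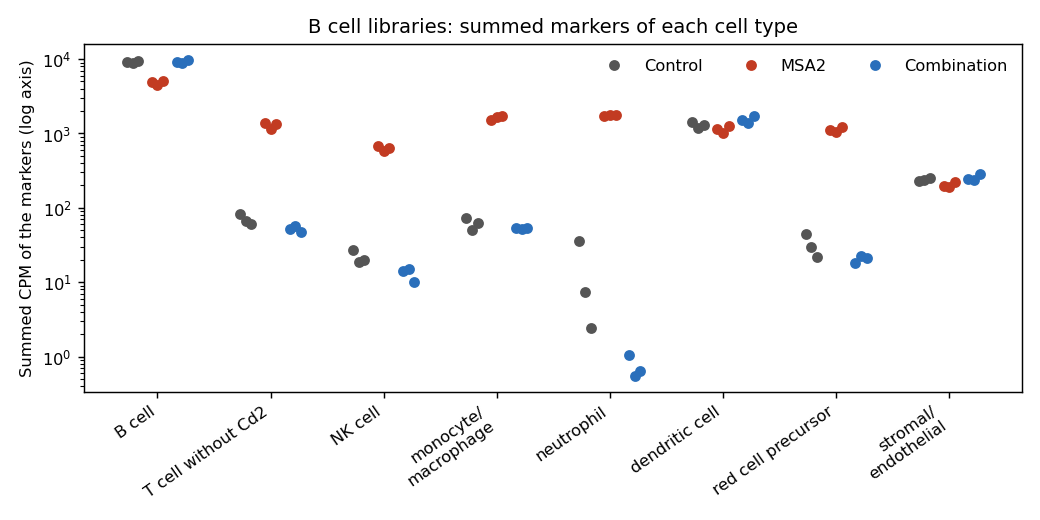
Summed level of the markers of 8 cell types in each B cell library, in CPM on TMM-scaled totals (log axis). Each point is 1 library, and the T cell list is drawn without Cd2. The MSA2 libraries lie at 4520 to 5090 CPM for B cell markers, below the other groups, and at 1710 to 1790 CPM for neutrophil markers, above them.

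With MSA2 these B cell libraries held more transcripts of the ligands Tnfsf8, Tnfsf11, Tnfsf14 and Tnfsf10 and of the receptors Tnfrsf1a, Tnfrsf9, Tnfrsf4, Tnfrsf18 and Tnfrsf21 than Control, while Tnfrsf1b, the most abundant member, had no call. The comparison gave 18 higher members, 0 lower and 5 without a call of 23 tested, beside 43.4% of all genes called, 24.9% higher and 18.5% lower. DESeq2 gave 18 calls too, and edgeR without the low-count filter 20. The median log2 fold change was 1.45 over the members tested and -0.01 over all genes tested. Among the ligands 6 of 7 tested rose (median 4.06) and among the receptors 12 of 16 (median 1.27). Tnfrsf25, Tnfsf12 and Tnfsf15 passed the filter only through the MSA2 libraries. Their entry into these counts and medians, and their p-values below, were therefore tied to their level with MSA2. Tnfrsf11b (12, 4 and 3 counts over Control, MSA2 and combination) and Tnfsf13os (3, 24 and 0 counts) did not pass the filter.

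**Figure D4:**
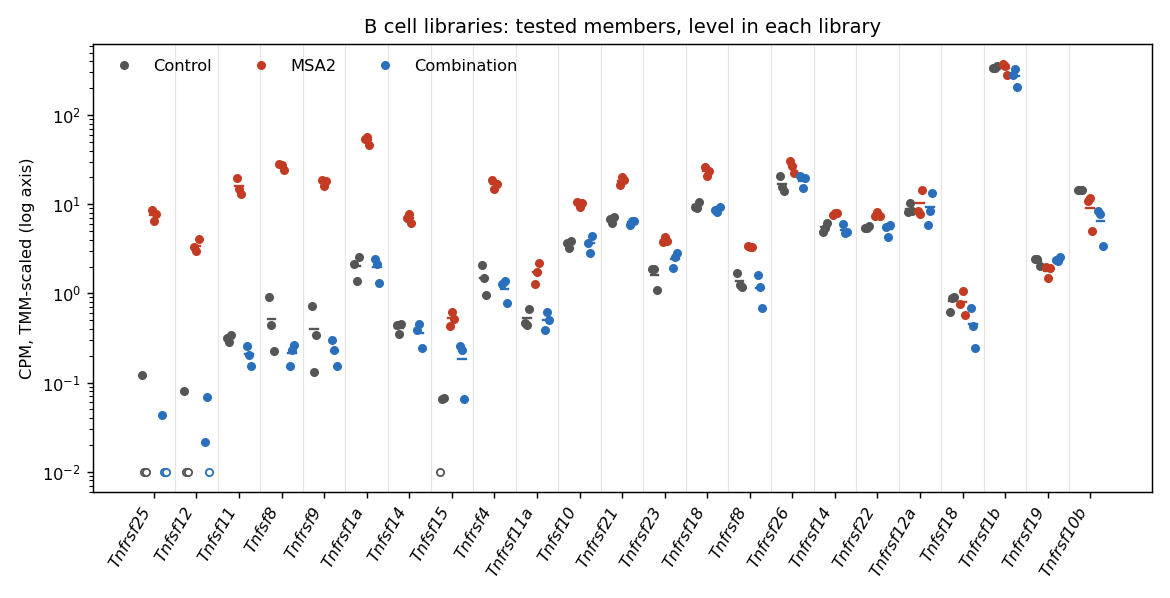
Level in each B cell library of the 23 members tested, in CPM on TMM-scaled totals (log axis), ordered by the change with MSA2. Filled points are libraries, open points at the bottom edge are libraries at 0, and short lines are group means. From Tnfrsf25 to Tnfsf14 the MSA2 libraries stand apart at the top, while Tnfrsf1b on the right overlaps between groups at 206 to 370 CPM.

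Of the ligands, Tnfsf8 was at 0.899, 0.437 and 0.225 CPM in Control and at 28.1, 27.2 and 24.4 CPM with MSA2. The MSA2 libraries lay close together and 49.9-fold above Control (5.64 ± 0.30 SE, adjusted p = 6.85e-08). Tnfsf11, made by activated T cells and stromal cells among others, was at 0.320, 0.284 and 0.337 CPM in Control and at 19.9, 14.8 and 13.1 CPM with MSA2 (5.65 ± 0.22 SE, adjusted p = 9.27e-09). Tnfsf14 was at 0.440, 0.350 and 0.450 CPM in Control and at 6.95, 7.77 and 6.15 CPM with MSA2 (4.06 ± 0.23 SE, adjusted p = 1.07e-07). None of these 3 ligands overlapped between the groups, and all were under 1 CPM in every Control library.

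Tnfsf12, which macrophages and NK cells are known to make, had 4 counts over Control, 466 with MSA2 and 4 with the combination. Its MSA2 libraries stood at 3.28, 3 and 4.04 CPM (6.79 ± 0.61 SE, adjusted p = 4.44e-06). With counts this low in Control the fitted fold depends on the prior count and is no bound. Tnfsf15, the leading ligand in BMDC, had 6, 71 and 25 counts over Control, MSA2 and combination and stayed under 1 CPM in every B cell library (3.52 ± 0.66 SE, adjusted p = 0.00124). Tnfsf10, the ligand with the highest level per kilobase of exon in Control, was at 3.64, 3.19 and 3.87 CPM there and rose to 10.6, 9.41 and 10.2 CPM (1.5 ± 0.16 SE, adjusted p = 1.46e-05). Tnfsf18 overlapped, at 0.619, 0.897 and 0.922 CPM in Control and 0.761, 1.05 and 0.568 CPM with MSA2 (-0.03 ± 0.37 SE, adjusted p = 0.957).

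Tnfrsf1b was the most abundant member in B cell libraries by level per kilobase of exon, at 90.1 CPM per kilobase in Control against 6.35 for the next, Tnfrsf18. It stood at 338, 336 and 359 CPM in Control and at 370, 354 and 278 CPM with MSA2, overlapping groups without a call (-0.04 ± 0.15 SE, adjusted p = 0.844). Tnfrsf1a, in contrast, was at 2.16, 1.36 and 2.54 CPM in Control and at 53.8, 57.2 and 46.1 CPM with MSA2. The groups were far apart (4.70 ± 0.23 SE, adjusted p = 4.47e-08), and its rank per kilobase with MSA2 was 2.

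Tnfrsf9, Tnfrsf4, Tnfrsf18 and Tnfrsf25, which encode costimulatory receptors known from T cells, were among the 12 receptors that rose and are described together, a grouping made after their values were seen. Tnfrsf9 was at 0.719, 0.131 and 0.337 CPM in Control and at 18.6, 15.9 and 18.1 CPM with MSA2 (5.43 ± 0.34 SE, adjusted p = 2.57e-07). Tnfrsf4 was at 2.06, 1.49 and 0.967 CPM in Control and at 18.9, 14.9 and 16.8 CPM with MSA2 (3.48 ± 0.25 SE, adjusted p = 7.61e-07). For both genes every MSA2 library was above every Control library. Tnfrsf18 went from 9.35, 9.16 and 10.5 CPM to 25.9, 20.8 and 23.8 CPM (1.28 ± 0.11 SE, adjusted p = 2.45e-06). Tnfrsf25, which encodes the receptor of TL1A on T cells, had 6 counts over Control, 1035 with MSA2 and 2 with the combination, and its MSA2 libraries stood at 8.69, 6.41 and 7.77 CPM (7.40 ± 0.55 SE, adjusted p = 1e-06). These receptors rose in the same libraries in which the marker sums of T cells, NK cells, monocytes and macrophages, neutrophils and red cell precursors were higher. How much of the receptors' level comes from any of these cells was not tested. Tnfrsf8 went from 1.70, 1.25 and 1.19 CPM to 3.39, 3.28 and 3.32 CPM (1.27 ± 0.27 SE, adjusted p = 0.00287).

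Tnfrsf21, which encodes the death-domain receptor DR6, rose from 6.87, 6.14 and 7.17 CPM to 16.3, 20.2 and 18.7 CPM (1.45 ± 0.11 SE, adjusted p = 1.3e-06). Tnfrsf11a was at 0.460, 0.437 and 0.674 CPM in Control and at 1.28, 1.75 and 2.20 CPM with MSA2 (1.73 ± 0.30 SE, adjusted p = 0.000657). Smaller rises were called for Tnfrsf23 (1.3 ± 0.23 SE), Tnfrsf26 (0.66 ± 0.17 SE), Tnfrsf14 (0.52 ± 0.13 SE) and Tnfrsf22 (0.48 ± 0.13 SE), with adjusted p-values from 0.000794 to 0.0121. Tnfrsf22, Tnfrsf23 and Tnfrsf26 lie side by side on chromosome 7, gaps of 6083 and 16147 bases apart. Of the 50-base stretches of Tnfrsf22, 27.4% occur elsewhere, mostly in Tnfrsf23, so the separate values of Tnfrsf22 and Tnfrsf23 are uncertain. Tnfrsf26 had 0 of 3168 such stretches in common with another gene. Tnfrsf18, Tnfrsf23 and Tnfrsf26 also overlap an exon of a gene on the other strand, and whether the counting used strand is not given in the sources used here. Tnfrsf12a (0.20 ± 0.29 SE, adjusted p = 0.625) and Tnfrsf19 (-0.35 ± 0.18 SE, adjusted p = 0.138) had no call. Tnfrsf10b was at 14.6, 14.5 and 14.3 CPM in Control and at 10.8, 11.6 and 4.97 CPM with MSA2. Its MSA2 libraries were all lower, with replicate 3 the lowest, but there was no call (-0.66 ± 0.33 SE, adjusted p = 0.126, 0.0442 without combination replicate 3, 0.0349 without the low-count filter and 0.0226 with the replicate number as a block).

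The combination against Control in B cells asks how the genes differ from untreated cells when both drugs are given. No member was called, 0 of 23, beside 1.06% of all genes called, 0.686% higher and 0.371% lower. The median log2 fold change was -0.09 against -0.02 over all genes. An unadjusted p under 0.05 was found for 5 members, Tnfrsf10b (-1.15 ± 0.33 SE, adjusted p = 0.201), Tnfsf8 (-1.3 ± 0.45 SE, adjusted p = 0.336), Tnfsf15 (2.04 ± 0.75 SE, adjusted p = 0.38), Tnfrsf23 (0.60 ± 0.23 SE, adjusted p = 0.42) and Tnfrsf1b (-0.34 ± 0.15 SE, adjusted p = 0.514). All genes under that cutoff were not counted here either. DESeq2 called 1 member, Tnfsf8 (-1.28, adjusted p = 0.0363), and edgeR without the low-count filter called 1, Tnfrsf10b (-1.14, adjusted p = 0.011), as did the fit with the replicate number as a block (-1.26, adjusted p = 0.0355). In the same order these settings called 385 of 15952, 359 of 27827 and 260 of 16180 genes tested. Tnfrsf10b was at 8.33, 7.79 and 3.39 CPM in the combination, all below the Control range of 14.3 to 14.6 CPM.

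In contrast the combination differed from MSA2 in B cells for the 18 members that MSA2 had raised, which were all lower, with 0 higher and 5 without a call, beside 37% of all genes called, 22.9% lower and 14.1% higher. The 2 comparisons share the MSA2 libraries and are not independent. Tnfrsf25, Tnfsf12 and Tnfsf15 passed the filter only through the MSA2 libraries. Their entry into these counts and into the median below was therefore tied to their level with MSA2. Tnfsf8 stood at 0.152, 0.229 and 0.264 CPM with the combination (-6.94 ± 0.34 SE against MSA2, adjusted p = 3.67e-08). Tnfsf11 stood at 0.260, 0.206 and 0.154 CPM (-6.25 ± 0.24 SE, adjusted p = 7.13e-09). Tnfrsf1a stood at 2.42, 2.15 and 1.32 CPM (-4.73 ± 0.23 SE, adjusted p = 4.17e-08). All 3 genes were in the range of Control or close to it, and the marker sums of T, NK, myeloid and red cells were low in the same libraries. Tnfrsf9 was at 0.303, 0.229 and 0.154 CPM (-6.24 ± 0.37 SE, adjusted p = 1.59e-07) and Tnfrsf4 at 1.26, 1.37 and 0.770 CPM (-3.89 ± 0.26 SE, adjusted p = 4e-07). Tnfsf10 was at 3.70, 2.86 and 4.36 CPM (-1.47 ± 0.16 SE, adjusted p = 1.8e-05). The median over the 23 members tested was -1.49, against 0.01 over all genes. Tnfsf13os had 0 counts with the combination and 24 with MSA2, a ratio with a 95% counting interval of 0 to 0.154. Tnfsf13, on the other strand, was also lower (-5.47 ± 0.46 SE, adjusted p = 2.34e-06). Whether its reads entered the counts of Tnfsf13os was not tested.

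Some of these calls rested on single libraries. Tnfsf15 (-1.49 ± 0.53 SE, adjusted p = 0.0465) lost its call with the replicate number, which pairs these 2 groups, as a block (-1.5, adjusted p = 0.0656). In all it lost the call in 11 of 14 alternatives, up to 0.144 without combination replicate 3, and was kept without Control replicate 1. The call was also lost without any other library of the B cells, at 0.06 to 0.12. Tnfrsf23 (-0.70 ± 0.22 SE, adjusted p = 0.029) lost it without combination replicate 1 (0.116) or 2 (0.0615) and without MSA2 replicate 1 (0.0503) or 2 (0.0836). Tnfrsf26 (-0.53 ± 0.17 SE, adjusted p = 0.0297) lost it without combination replicate 2 (0.117) and without MSA2 replicate 1 (0.113) or 2 (0.0733).

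The change with MSA2 was then compared between the cell types, as the log2 fold change in BMDC minus that in B cells in 1 fit of all 17 libraries. Of the 25 members, 19 differed, 3 with a larger and 16 with a smaller value in BMDC, beside 37% of all genes called, 16.3% larger and 20.7% smaller in BMDC. The larger ones were Tnfrsf11b (3.76, adjusted p = 0.00212), Tnfsf18 (2.14, adjusted p = 0.00529) and Tnfrsf12a (1.04, adjusted p = 0.0266). Tnfrsf12a lost that call without B cell Control replicate 2 (0.0683), B cell MSA2 replicate 1 (0.062) or 2 (0.0667), BMDC Control replicate 3 (0.0574) or BMDC MSA2 replicate 1 (0.0561) or 2 (0.0523). All 3 rose in BMDC, while in B cells Tnfrsf12a and Tnfsf18 had no call and Tnfrsf11b was too low to test. The strongest differences the other way by p were Tnfrsf1a (-4.39, adjusted p = 5.85e-11), Tnfsf12 (-6.99, adjusted p = 2.82e-10) and Tnfrsf9 (-5.18, adjusted p = 6.37e-09). Tnfsf8 (-3.36, adjusted p = 1.14e-06) and Tnfsf14 (-1.95, adjusted p = 7.69e-05) rose in both cell types, by more in the B cell libraries. Among the 16 smaller ones, Tnfrsf25 passed the low-count cutoffs only in the B cell MSA2 libraries. Its place in that count was therefore tied to its level there. The difference for Tnfsf15 had no call (2.20 ± 1.23 SE, adjusted p = 0.181, and 0.0115 with DESeq2), and neither had that for Tnfsf10 (-0.22 ± 0.36 SE, adjusted p = 0.689). Markers of T cells, NK cells, monocytes and macrophages, neutrophils and red cell precursors rose with MSA2 in the B cell libraries. In BMDC the T and NK cell lists summed to at most 16.2 CPM each, and the monocyte and macrophage list to 15200 to 20800 CPM. The differences between the cell types in the members and in this makeup therefore cannot be told apart.

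**Figure D5:**
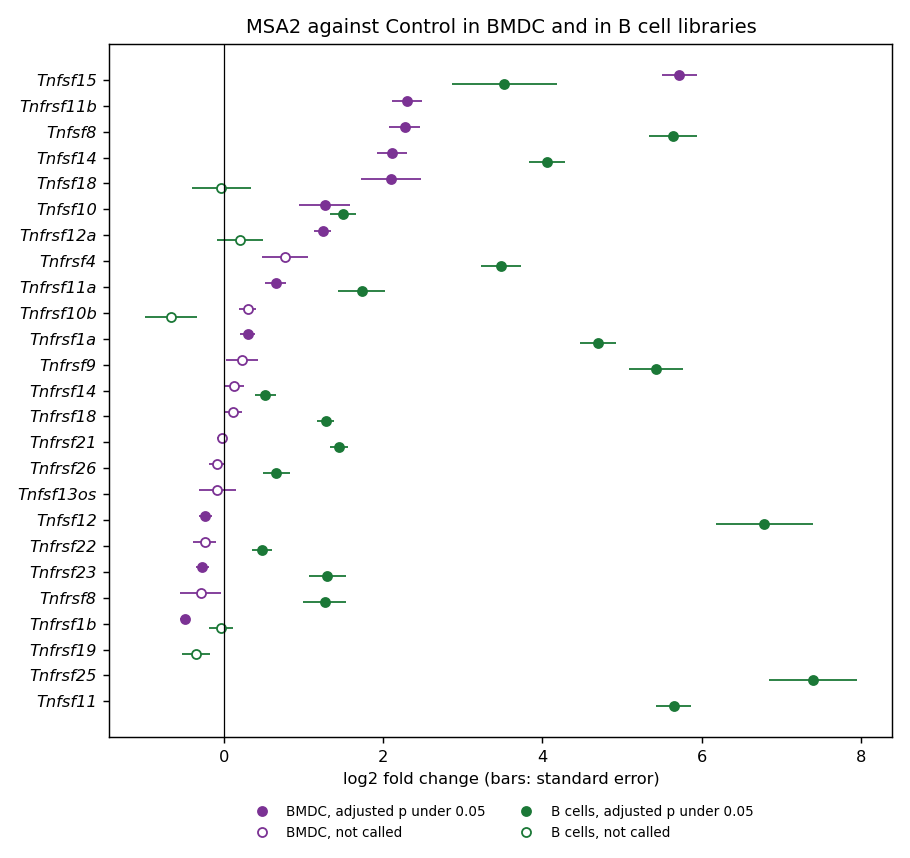
Log2 fold change of MSA2 against Control for each member in BMDC (purple) and in B cell libraries (green), with standard errors as bars. Filled points have an adjusted p under 0.05, and a missing point was too low to test. Tnfrsf1a lies at 0.30 in BMDC and 4.70 in B cells, and Tnfrsf11b has a point in BMDC only, at 2.30.

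For the combination against Control the difference between the cell types was called for 4 members, all with a larger value in BMDC, beside 3.04% of all genes called, 2.14% larger and 0.902% smaller in BMDC. These were Tnfsf8 (2.63, adjusted p = 0.0225), Tnfsf14 (1.68, adjusted p = 0.0289), Tnfrsf11b (3.58, adjusted p = 0.038) and Tnfrsf19 (3.48, adjusted p = 0.0483). Tnfrsf23 had a smaller value in BMDC that just missed a call (-0.88 ± 0.24 SE, adjusted p = 0.0509), and it was called smaller in 8 alternatives, among them RLE factors (0.0495), the stricter filter (0.0445), no filter (0.00618) and DESeq2 (0.00489). The calls of larger values fell to 0 without BMDC combination replicate 1. Without B cell Control replicate 1 there were 0 as well, and Tnfrsf23 was called smaller (adjusted p = 0.0421). There was 1 without B cell Control replicate 3, and 1 beside the smaller Tnfrsf23 (adjusted p = 0.0251) without B cell combination replicate 1. Leaving out B cell Control replicate 2, B cell combination replicate 2 or BMDC combination replicate 2 gave 2. Without B cell combination replicate 3 there were also 2, Tnfsf8 and Tnfrsf12a. Tnfrsf12a was called there (1.54, adjusted p = 0.0111) but not with all libraries (1.14, adjusted p = 0.127). Tnfrsf19 rested on 10 counts in the BMDC combination against 1 in Control, 8 of them in replicate 1. For the combination against MSA2, 16 members had a larger value in BMDC and 0 a smaller one, beside 24.1% of all genes called, 15.3% larger and 8.83% smaller in BMDC. Tnfrsf9 (6.38, adjusted p = 1.94e-09), Tnfsf8 (5.99, adjusted p = 4.3e-09) and Tnfrsf1a (4.56, adjusted p = 6.77e-11) were among them. So was Tnfrsf25, which passed the low-count cutoffs only in the B cell MSA2 libraries.

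The other superfamily genes and the genes of TNF receptor signalling were taken as lists. Of the 22 superfamily genes under other symbols or outside the rule, 14 were tested in BMDC, and with MSA2 9 were higher and 1, Relt, was lower (median 0.54), beside 14.6% of all genes higher and 13.5% lower. Tnf itself rose by 6.85 ± 0.46 SE on the log2 scale (adjusted p = 1.22e-06), Lta, the lymphotoxin α gene, by 3.15 ± 0.23 SE (adjusted p = 2.12e-06) and Cd40, the receptor through which T cells license dendritic cells, by 2.28 ± 0.08 SE (adjusted p = 1.67e-08). With the combination 6 were higher and 1 lower (median 0.38), beside 7.51% and 5.38% of all genes. In B cells 12 of 19 were higher and 4 lower with MSA2 (median 1.13), the lower ones being Cd40, Ngfr, Tnfrsf13b and Tnfrsf13c, beside 24.9% of all genes higher and 18.5% lower. Only Tnf (4.03 ± 0.41 SE, adjusted p = 0.000341) and Lta (1.37 ± 0.23 SE, adjusted p = 0.0147) were called in the B cell combination, both higher (median 0.05), beside 0.686% of all genes higher and 0.371% lower. Against MSA2 the B cell combination had 6 higher and 10 lower (median -0.72), beside 14.1% of all genes higher and 22.9% lower, and the BMDC combination had 0 called by edgeR, which called no gene in that contrast (median -0.21).

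All 38 TNF receptor signalling genes were tested. In BMDC 18 were higher and 3 lower with MSA2 (median 0.17), and 15 higher and 1 lower with the combination (median 0.14). Tnfaip3, which encodes the NF-κB inhibitor A20, rose by 4.21 ± 0.16 SE on the log2 scale with MSA2 (adjusted p = 1.77e-08) and by 3.66 ± 0.16 SE with the combination (adjusted p = 1.12e-07). Nfkbia, another inhibitor of NF-κB, rose by 2.59 ± 0.09 SE (adjusted p = 1.7e-08) and Cflar, an inhibitor of death-receptor caspases, by 2.49 ± 0.09 SE (adjusted p = 1.67e-08) with MSA2. The genes that fell were Traf5 (-0.39 ± 0.12 SE), Ripk1 (-0.18 ± 0.06 SE) and Map3k14 (-0.44 ± 0.06 SE), the kinase of the noncanonical arm. Over all genes tested 14.6% were higher and 13.5% lower with MSA2 in BMDC, and 7.51% and 5.38% with the combination. In B cells 5 were higher and 16 lower with MSA2 (median -0.15), beside 24.9% of all genes higher and 18.5% lower. The 12 B cell markers fell in the same libraries (median -0.97), and their part in these values was not tested. Among the lower genes were Traf2 (-0.61 ± 0.09 SE, adjusted p = 0.000326) and Birc3 (-0.65 ± 0.07 SE, adjusted p = 1.5e-05). Tnfaip3 was higher with MSA2 (1.65 ± 0.08 SE, adjusted p = 5.24e-08) and was the 1 gene of the list called with the combination (1.44 ± 0.08 SE, adjusted p = 2.81e-06, list median 0). Over all genes tested 0.686% were higher and 0.371% lower with the combination in B cells. Against MSA2, 16 of the list were higher and 5 lower in the B cell combination (median 0.15), beside 14.1% of all genes higher and 22.9% lower. In BMDC 0 of the list were called against MSA2 (median -0.06), beside 0% of all genes.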

How the data were processed

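RNA-seq expected counts per gene were deposited as 1 annotated table for each cell type. Per the submitters' processing notes, the authors' tools were cutadapt 4.8, STAR 2.7.8a, RSEM 1.3.3, FastQC 0.11.8 and MultiQC 1.20, with builds GRCm38 and mm10. The annotation release and whether counting used strand are not given in the sources used here. The deposited expected counts were rounded to whole numbers before the fits. All values came from R 4.3.3. Each cell type was fitted on its own with edgeR 4.0.16 (quasi-likelihood F test, TMM factors, a group term without a block), and all 17 libraries in 1 fit for the difference between cell types, where the 2 tables stand side by side and levels between them were not compared. Genes needed 0.222 CPM in 3 libraries (B cells) or 0.256 CPM in 2 libraries (BMDC), and p-values were adjusted by Benjamini and Hochberg over all genes tested. Counts limit precision for the weakly expressed members, for which group totals are given, and intervals cover counting error only.

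Alternatives were RLE factors, no filter, a filter of 1 CPM in 3 libraries, DESeq2 1.42.0, the compared groups alone, the replicate number as a block, and fits that left out 1 library at a time. Replicate numbers, from the titles, paired the B cell combination with B cell MSA2 (same-number deviations had r between 0.34 and 0.54). Unlike numbers of these 2 groups had r between -0.55 and 0.31. The highest, for combination replicate 2 and MSA2 replicate 1, was close to the same-number values, so that pairing is not sharp. Replicate numbers paired no other groups compared (r between -0.01 and 0.13 for B cells, and between -0.18 and 0.11 for BMDC). No 2 libraries were identical. Every member is accounted for. Members called, or with a mean of at least 1 CPM in a group, are given per library where a result turns on them, and the other members by ranges and counts. Members, marker lists (B cell, T cell, NK cell, monocyte and macrophage, neutrophil, dendritic cell, red cell precursor, stromal and endothelial) and pathway lists were chosen with earlier results of these data known. Positions and exon lengths came from GENCODE M21 on GRCm38, and promoter windows from RefSeq on GRCm38.p6.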

Additional observations from a re-analysis of the deposited data

Results flagged for a closer look

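The results below were singled out because the test of the difference itself, the log2 fold change in BMDC minus that in B cells, had an adjusted p under 0.05 in edgeR. The B cell MSA2 libraries, which enter 2 of the 3 contrasts, held more marker transcripts of other cell types than the other B cell libraries, and the part of this in the differences was not tested. Groups of 2 or 3 libraries were too small for a test of single outlying libraries.

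For MSA2 against Control the ligands with a smaller value in BMDC were Tnfsf11 (-7.26, and -6.35 with adjusted p = 0.0568 without BMDC Control replicate 1), Tnfsf12 (-6.99), Tnfsf8 (-3.36), the noncoding Tnfsf13os (-2.96) and Tnfsf14 (-1.95), and Tnfsf18 had a larger one (2.14). The receptors with a smaller value were Tnfrsf25 (-8.88), Tnfrsf9 (-5.18), Tnfrsf1a (-4.39), Tnfrsf4 (-2.71), Tnfrsf23 (-1.56), Tnfrsf8 (-1.55), Tnfrsf21 (-1.47), Tnfrsf18 (-1.15), Tnfrsf11a (-1.08), Tnfrsf26 (-0.73) and Tnfrsf22 (-0.72). Tnfrsf11b (3.76) and Tnfrsf12a (1.04) had larger values.

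For the combination against Control, Tnfrsf11b (3.58), Tnfrsf19 (3.48), Tnfsf8 (2.63) and Tnfsf14 (1.68) had larger values in BMDC. Without BMDC combination replicate 1 the adjusted p was 0.0969 for Tnfrsf11b, 0.598 for Tnfrsf19, 0.071 for Tnfsf8 and 0.0917 for Tnfsf14. Without B cell Control replicate 1 it was 0.085, 0.0724, 0.169 and 0.0838 in the same order. Other single libraries also ended the call for Tnfrsf11b (B cell Control replicates 2 and 3, B cell combination replicates 2 and 3 and BMDC combination replicate 2, 0.0591 to 0.131) and for Tnfsf14 (B cell Control replicate 3, B cell combination replicates 1 and 3 and BMDC combination replicate 2, 0.0552 to 0.0916). Tnfrsf11b lost its call with the replicate number as a block too (0.0605). Tnfsf8 lost its call without B cell combination replicate 1 (0.0649), and Tnfrsf19 lost it in 15 of 22 alternatives.

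For the combination against MSA2 the larger values in BMDC were those of Tnfrsf25 (9.66), Tnfsf11 (7.86), Tnfsf12 (6.83), Tnfrsf9 (6.38), Tnfsf13os (6.15), Tnfsf8 (5.99), Tnfrsf1a (4.56), Tnfrsf4 (3.71), Tnfsf14 (3.64), Tnfrsf19 (2.62), Tnfrsf11a (1.65), Tnfrsf21 (1.49), Tnfrsf18 (1.39), Tnfrsf8 (1.32), Tnfsf10 (1.21) and Tnfrsf23 (0.68). Without BMDC combination replicate 1 the call was lost for Tnfsf11 (4.43, adjusted p = 1), Tnfrsf19 (1.43, 0.525), Tnfrsf8 (1.03, 0.212), Tnfsf10 (0.85, 0.198) and Tnfrsf23 (0.64, 0.109). It was lost for Tnfrsf25 without BMDC combination replicate 2 (9.04, 0.146), for Tnfrsf8 also without BMDC MSA2 replicate 1, B cell combination replicates 2 or 3 or B cell MSA2 replicate 1 (0.0526 to 0.0659), for Tnfrsf23 also without BMDC combination replicate 2, BMDC MSA2 replicates 1 or 2, B cell combination replicate 1 or B cell MSA2 replicate 2 (0.0578 to 0.099), and for Tnfrsf19 also without BMDC MSA2 replicates 1 (0.0593) or 2 (0.0709) and with the replicate number as a block (0.0779). With DESeq2 the call of Tnfrsf19 was lost as well (2.86, adjusted p = 0.0575). The values of Tnfrsf25, Tnfsf11, Tnfsf12, Tnfsf13os, Tnfrsf19 and Tnfrsf11b include a group with few or no counts, depend on the prior count and are no bounds. Those of Tnfsf13os may also hold reads of Tnfsf13 on the other strand, which was not tested.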

How the results depend on the processing

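Within the cell types, 55 calls of members were rerun under 803 alternatives, of which 759 kept the call, 44 lost it and 0 turned the direction, and 46 of the 55 calls held in every alternative run. Members called in B cells numbered 18 for MSA2 against Control (18 to 19 with each library left out, 20 without the low-count filter and 17 with the stricter one). For the combination against Control they numbered 0 (0 to 0, but 1 without the filter, 1 with DESeq2 and 1 with a replicate block). Against MSA2 they numbered 18 (15 to 18). In the same order they numbered 12 (9 to 11, and 14 without the filter) and 7 (5 to 8, and 9 without the filter) in BMDC. The last contrast in BMDC gave 0 (0 to 0, but 4 without the filter). For the difference between cell types the members called numbered 19 (18 to 21, but 22 without the filter and 22 with DESeq2). The other contrasts gave 4 (0 to 6, and 7 without the filter) and 16 (11 to 17). As a block the replicate number, which pairs only the B cell combination with B cell MSA2, gave 19, 1 and 17 members in B cells, 11, 7 and 0 in BMDC, and 20, 4 and 16 for the difference. In the paired comparison it ended the call of Tnfsf15 (adjusted p = 0.0656) and changed no other call of a member. It moved all genes called in B cells from 7016, 171 and 5985 to 7438, 260 and 6401. All genes called for the combination against Control in B cells were 359 without the filter and 385 with DESeq2. In BMDC, 158 genes differed between the combination and MSA2 with DESeq2, 561 without the filter and 99 without MSA2 replicate 2, against 0, and the combination differed from Control in 843 genes without combination replicate 1 and 1036 without replicate 2, against 1883. The direction turned, without a call, for Tnfrsf25 in the B cell combination against Control (2.67 without Control replicate 1, against -1.37), for the difference between cell types of Tnfrsf25 in that contrast (-3.15 without B cell Control replicate 1, against 0.78) and of Tnfsf11 (-2.82 without BMDC combination replicate 1, against 0.60). Left-out libraries spanned -4.05 to 2.67, -3.15 to 3.4 and -2.82 to 1.51 for these 3. The cause was not tested, and each rests on groups of 7 counts or fewer in at least 1 cell type.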
